A study of Mus musculus with 8 samples.

Results

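VRK1, a nuclear serine/threonine kinase, has a set of known substrates that act in transcription and DNA repair, and the RNA of 7 of their genes was examined here in testes with and without normal VRK1. The genes are Jun, Atf2, Creb1, Trp53, Coil, Trp53bp1 and Nbn. Every probe that the array files name for one of them was taken, except control spots, which gave 18 of the 41174 probes on each array. Of these 18 probes, 15 were bright enough to be tested, with at least 1 for each gene, so that the 7 genes were all among the 17950 gene symbols tested.

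VRK1 phosphorylates c-Jun, ATF2 and CREB, which are transcription factors of the basic leucine zipper class. Such factors pair through a coiled zipper of regularly spaced leucines and bind short DNA motifs, the AP-1 site and the cAMP response element (CRE). They are also targets of the JNK, p38 and cAMP-dependent kinases, and c-Jun is an immediate early gene product, made quickly after a stimulus. The tumour suppressor p53, encoded by Trp53, is phosphorylated by VRK1 near the site through which MDM2 marks it for degradation. Coilin, the product of Coil, is the scaffold of the Cajal body, a nuclear structure in which small nuclear RNAs are matured. TP53BP1 (from Trp53bp1) and NBS1 (from Nbn) gather at DNA double-strand breaks, TP53BP1 on the surrounding chromatin and NBS1 as part of the MRN complex with MRE11 and RAD50. Phosphorylation acts on the protein, whereas the arrays measured only the RNA of these genes. The comparison asks whether the RNA of the substrates differed when the kinase was reduced.

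Total RNA came from testes of male mice at postnatal day 8, with 4 wild type and 4 VRK1-deficient biological replicates and 1 array per replicate. The VRK1-deficient mice carried a β-geo gene trap (vector pGT1lxf) in intron 3 of Vrk1, from the ES cell clone RRR178, and the line had been backcrossed to C57BL/6. The allele is hypomorphic, since some full-length VRK1 is still made, and it was derived from 1 ES clone. The labels do not give the strain of the wild type mice or their relation to the VRK1-deficient mice. RNA was measured in whole testis, in which fewer cells of a type and less RNA per cell cannot be told apart. All levels below are log2 intensities from which the 75th percentile of the same array was subtracted, so that 0 is the level of that percentile, and all changes are VRK1-deficient minus wild type.

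The Vrk1 probe gave -0.20, -0.11, 0.59 and 0.35 on the wild type arrays of replicates 1 to 4 and -3.97, -3.68, -3.58 and -4.17 on the VRK1-deficient arrays. It averaged 0.16 ± 0.38 in wild type and -3.85 ± 0.27 in VRK1-deficient testes (SD, n = 4), which left 6.23% of the wild type signal (limma adjusted p = 0.000135). The place of that probe relative to the trap was not determined. Between 63.6% and 69.5% of spots were well above background on each array. Markers of the seminiferous tubule were present in both genotypes. Of 9 germ cell markers tested, 9 were lower in VRK1-deficient testes (median log2 change -0.96), although only 1, Tdrd1, passed the adjusted threshold. Of 10 Sertoli cell markers, 9 were higher (median 0.41) and none passed it. An unadjusted limma p under 0.05 was reached by 8 of the 9 and 5 of the 10, against 29.6% of all genes. Without wild type replicate 1, 8 of the 9 and 7 of the 10 passed the adjusted threshold, against 28.9% of all genes. The wild type array of replicate 1 stood apart from the other wild type arrays. It correlated at 0.987 to 0.990 with the VRK1-deficient arrays and at 0.970 to 0.986 with the other wild type arrays, and its mean over the germ cell markers was 1.28, whereas wild type replicates 2 to 4 had 2.26 to 2.75 and the VRK1-deficient arrays 0.78 to 1.53. Its Vrk1 level, -0.20, lay 3.38 above that of the highest VRK1-deficient array. Slide 1 held replicates 1 and 2 and slide 2 held replicates 3 and 4, with wild type always at array positions 1 and 2 and VRK1-deficient at positions 3 and 4, so that position and genotype cannot be told apart.

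The probes are printed here because different probes of the same gene gave different results, most clearly for Atf2 and Creb1. Positions are those of the array files, in mouse build mm7, and sequences are in the sense of the transcript, 5′ to 3′. Capitals mark leucine codons that recur every 7 codons in the leucine zippers of Atf2 and Creb1, with the reading frame taken from general knowledge of these proteins. Of probes that are not known to lie in coding sequence, the first 30 bases are shown.
Atf2 upstream coding probe (A_52_P116253, chr2:73689949-73690008, minus strand): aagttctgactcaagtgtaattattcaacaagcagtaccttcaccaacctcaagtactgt
Atf2 zipper probe (A_52_P130596, chr2:73672192-73672251, minus strand): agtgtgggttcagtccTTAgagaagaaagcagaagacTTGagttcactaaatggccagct
Atf2 brightest probe (A_52_P272547, chr2:73661372-73661431, minus strand), first 30 bases: catcttccactagtttatgccagcgatatt
Creb1 zipper probe (A_52_P174396, chr1:64839040-64839099, plus strand): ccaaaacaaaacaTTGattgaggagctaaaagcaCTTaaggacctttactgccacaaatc
Creb1 brightest probe (A_51_P101621, chr1:64843383-64843442, plus strand), first 30 bases: agtcagtatggaagaatttcaaacaaatca
Jun probe (A_51_P325914, chr4:94441779-94441838, minus strand), first 30 bases: tttataatcataggaaagatttagtaatta
Trp53 brightest probe (A_52_P491849, chr11:69671206-69671265, plus strand): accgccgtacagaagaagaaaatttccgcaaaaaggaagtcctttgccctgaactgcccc
Coil probe (A_51_P483839, chr11:89100459-89100518, plus strand), first 30 bases: ttgctgcacaatgcagggaacttgggctcc
Trp53bp1 brightest probe (A_52_P464437, chr2:120939905-120939964, minus strand): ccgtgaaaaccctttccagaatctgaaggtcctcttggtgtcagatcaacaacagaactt

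None of the 7 genes passed the adjusted threshold between the genotypes when each gene was represented by its brightest probe, against 4.09% of all genes tested. Coil and Trp53bp1 were lower in VRK1-deficient testes on every array, at 74.7% and 75.6% of wild type, and Creb1 was higher on every array at its brightest probe, at 122% of wild type. Jun, Atf2, Trp53 and Nbn overlapped between the genotypes. An unadjusted limma p under 0.05 was reached by 3 of the 7 genes, against 29.6% of all genes, and 3 of 7 showed no overlap between genotypes, against 17.7%. The methods' t-test gave 3 of 7 at its own threshold for p, 0 of 7 when a fold change of at least 2 was also asked for, and 0 of 7 after Benjamini-Hochberg adjustment. Over the 26962 probes tested it gave 7068, 775 and 162, in the same order. The median log2 change of the 7 genes was -0.09, beside 0.04 over all genes tested, of which 45.1% were lower. The mean level of the 7 genes was 1.16 ± 0.07 in wild type and 1.11 ± 0.05 in VRK1-deficient testes (SD, n = 4), less than 1 SD apart. With wild type replicate 1 left out, Coil, Trp53bp1 and Creb1 passed the adjusted threshold, 3 of 7 against 28.9% of all genes.

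**Figure D1:**
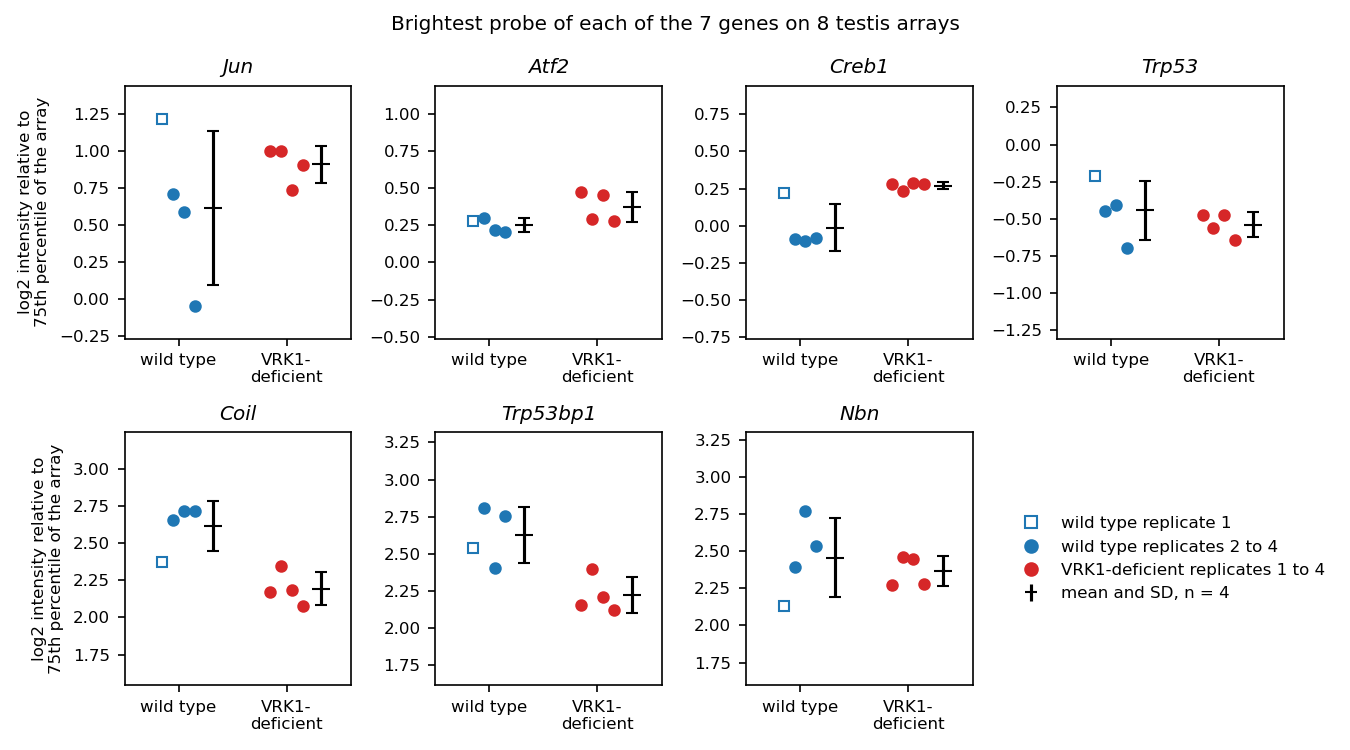
Log2 intensity of the brightest probe of each gene on the 8 arrays, minus the 75th percentile of the same array. Points are arrays, the open square is wild type replicate 1, the bars give the mean and SD (n = 4), and all panels span the same range. Coil and Trp53bp1 lie lower and Creb1 higher in every VRK1-deficient array, with gaps of at most 0.026 between the nearest arrays of the genotypes.

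Jun encodes c-Jun, the main partner of the Fos proteins in AP-1. Its single probe, printed in 10 spots, gave 1.22, 0.71, 0.59 and -0.04 on the wild type arrays of replicates 1 to 4, and 1.00, 1.00, 0.74 and 0.90 on the VRK1-deficient arrays. The wild type arrays thus spread over a range that enclosed the whole VRK1-deficient group, and the highest and the lowest Jun values were both wild type. Jun had a log2 change of 0.29 (SE 0.23, limma adjusted p = 0.428), with a 95% interval from -0.24 to 0.82. The pairs of arrays on slide 1 gave 0.04 and those on slide 2 gave 0.55. The SD over the spots of one array was between 0.035 and 0.081, and the SD between wild type arrays was 0.52. The log2 change of Jun without wild type replicate 4 was 0.07 (limma adjusted p = 0.832), and without wild type replicate 1 it was 0.49 (limma adjusted p = 0.0805).

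Atf2 encodes ATF2, which pairs with c-Jun at CRE-like sites. At its brightest probe, near the 3′ end of the mapped region, the wild type arrays gave 0.28, 0.30, 0.22 and 0.20 and the VRK1-deficient arrays 0.47, 0.29, 0.45 and 0.28. The groups overlapped, with a log2 change of 0.12 (SE 0.10, limma adjusted p = 0.442) and a 95% interval from -0.11 to 0.35. A neighbouring probe 302 bases further downstream had one of 0.20 (limma adjusted p = 0.280). The 3′ probes therefore gave values slightly higher in VRK1-deficient testes, within the spread of the arrays.

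The probe over the leucine zipper of Atf2 behaved differently. It gave -2.29, -1.03, -1.12 and -1.22 in wild type and -2.75, -2.72, -2.22 and -2.60 in VRK1-deficient testes. Wild type replicates 2 to 4 lay above every VRK1-deficient array by over 1 log2 unit, whereas wild type replicate 1 lay inside the VRK1-deficient range. The log2 change was -1.16 (SE 0.27, limma adjusted p = 0.0515), or 44.7% of wild type. Both slides gave a similar value, -1.08 on slide 1 and -1.24 on slide 2. It was the probe with the largest change among the 15 and missed the threshold narrowly. Without wild type replicate 1 it was -1.45 (limma adjusted p = 0.00323), a setting in which 7659 of the 26962 probes tested passed. When any other array was left out, the limma adjusted p lay between 0.0881 and 0.153. The coding probe 17757 bases further upstream in the genome was at -3.71, -3.24, -3.28 and -3.22 in wild type and at -3.62, -3.67, -3.65 and -3.82 in VRK1-deficient testes. It showed the same arrangement, with wild type replicate 1 inside the VRK1-deficient range, and a log2 change of -0.33 (limma adjusted p = 0.155). The remaining Atf2 probes, A_52_P86665 and A_52_P379037, were not well above background on any array.

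Creb1 encodes CREB, which binds the CRE and is activated by cAMP signalling. Its brightest probe, the one furthest downstream and printed in 10 spots, gave 0.22, -0.09, -0.10 and -0.08 in wild type and 0.28, 0.23, 0.28 and 0.28 in VRK1-deficient testes. Every VRK1-deficient array was higher than every wild type array, but wild type replicate 1 lay only 0.011 below the nearest of them. This was a log2 change of 0.28 (SE 0.11, limma adjusted p = 0.137), made up of 0.19 on slide 1 and 0.38 on slide 2. Without wild type replicate 1 it was 0.36 (limma adjusted p = 0.0225). The SD over spots of one array was between 0.029 and 0.060, and the SD between the wild type arrays was 0.16.

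The zipper probe of Creb1 ran the other way. It gave -2.64, -1.95, -2.12 and -1.68 in wild type and -2.83, -2.43, -2.48 and -2.79 in VRK1-deficient testes, with wild type replicate 1 again inside the VRK1-deficient range. Here the log2 change was -0.53 (SE 0.21, limma adjusted p = 0.131), or 69.1% of wild type. The probe 747 bases downstream of it had a change of -0.26 (limma adjusted p = 0.277), and the brightest probe lies 4343 bases downstream of it. With wild type replicate 1 left out, the changes were -0.71 at the zipper probe (limma adjusted p = 0.0137) and -0.38 at the middle probe (limma adjusted p = 0.0492), opposite in sign to the 0.36 of the brightest probe. In that setting 7659 of the 26962 probes tested passed. When any other array was left out, the limma adjusted p lay between 0.157 and 0.292 at the zipper probe. At the middle probe it lay between 0.282 and 0.519.

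**Figure D2:**
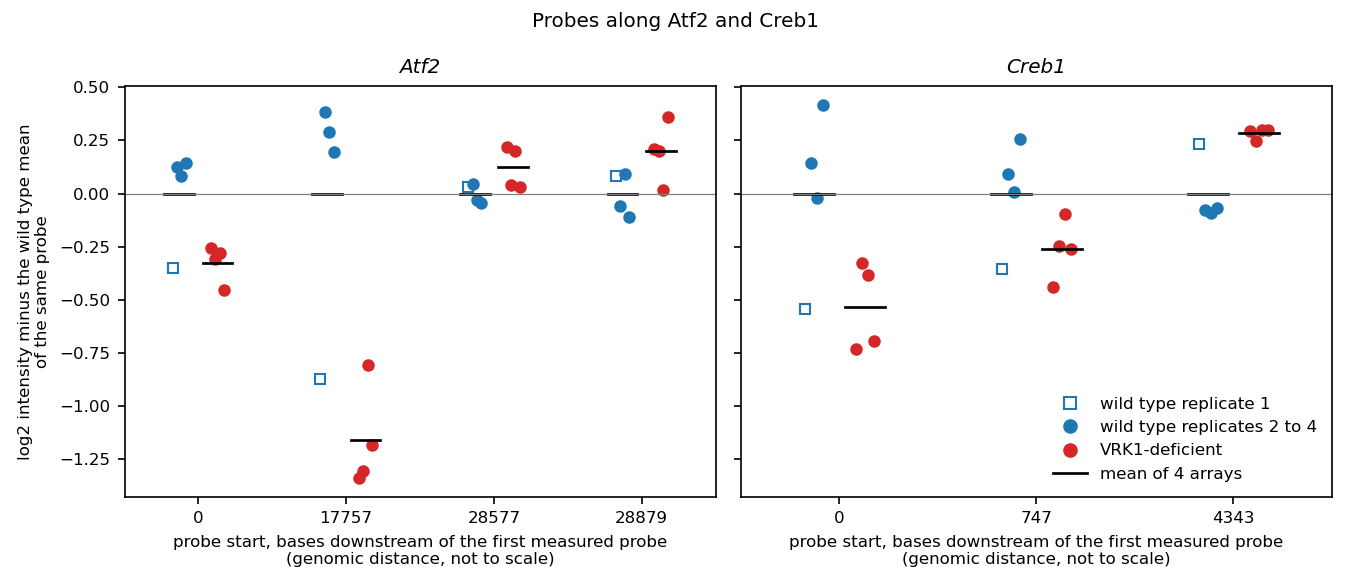
Log2 intensity minus the wild type mean of the same probe, for the 4 tested probes of Atf2 and the 3 of Creb1, in order along the gene. The horizontal axis gives the genomic distance in bases from the first tested probe and is not to scale. Points are arrays, the open square is wild type replicate 1 and black lines are means of 4 arrays. In VRK1-deficient testes the last 2 probes of Atf2 and the last of Creb1 lie higher and the probes upstream of them lower, with means from -1.16 to 0.28.

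Differences between 2 probes of a gene were then compared within each array, where scaling between arrays cancels. In all, 12 pairs of probes in 5 genes were compared with a two-sided exact permutation test over 70 arrangements, for which the smallest possible p is 0.0286. The Atf2 zipper probe minus the brightest Atf2 probe was -2.57, -1.33, -1.35 and -1.42 on the wild type arrays and -3.23, -3.01, -2.68 and -2.88 on the VRK1-deficient arrays. Every VRK1-deficient array was thus lower than every wild type array, by -1.28 on average (exact permutation p = 0.0286, Benjamini-Hochberg adjusted p = 0.114). The upstream coding probe minus the zipper probe was also without overlap, and 0.83 higher in VRK1-deficient testes (exact permutation p = 0.0286, adjusted p = 0.114). Here the groups almost met, with wild type replicate 1 at -1.425 and VRK1-deficient replicate 3 at -1.423. On average the zipper probe was thus lower relative to the upstream coding probe and to the brightest probe. For Creb1 the zipper probe minus the brightest probe was -2.09 ± 0.55 in wild type and -2.90 ± 0.22 in VRK1-deficient testes, a difference of -0.82 (SD, n = 4, exact permutation p = 0.0857, adjusted p = 0.147), and the groups overlapped. No pair passed after adjustment, and with 12 pairs a single pair at the smallest possible p cannot pass. The pairs of Trp53, Trp53bp1 and Nbn overlapped between the genotypes. Splicing and the choice of 3′ end were not tested, since the probes were not matched to transcripts of their build here.

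Trp53 encodes p53, which halts division or removes cells after DNA damage. Its brightest probe, printed in 10 spots, gave -0.21, -0.45, -0.41 and -0.70 in wild type and -0.47, -0.56, -0.47 and -0.65 in VRK1-deficient testes. The VRK1-deficient arrays fell inside the wild type range. Trp53 had a log2 change of -0.10 (SE 0.13, limma adjusted p = 0.635), with a 95% interval from -0.38 to 0.19. The probe 9175 bases upstream of it, A_52_P781398, had a change of 0.08 (limma adjusted p = 0.728), with -0.14 on slide 1 and 0.29 on slide 2. Neither probe separated the genotypes. The change at the brightest probe was -0.02 without wild type replicate 1 and -0.18 without wild type replicate 4.

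Coil was the member with the smallest unadjusted p at its brightest probe. Its single probe gave 2.37, 2.66, 2.72 and 2.72 in wild type and 2.17, 2.34, 2.18 and 2.07 in VRK1-deficient testes. Every VRK1-deficient array was lower, with VRK1-deficient replicate 2 only 0.026 under wild type replicate 1. Coil had a log2 change of -0.42 (SE 0.12, limma adjusted p = 0.0727), with a 95% interval from -0.70 to -0.15. Slide 1 gave -0.26 and slide 2 gave -0.59, and without wild type replicate 1 it was -0.50 (limma adjusted p = 0.0119). With an intensity trend and robust variances in limma, the change of Coil passed the threshold (limma adjusted p = 0.0472).

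Trp53bp1 was lower by a similar amount at its brightest probe, which gave 2.54, 2.81, 2.40 and 2.76 in wild type and 2.16, 2.40, 2.21 and 2.12 in VRK1-deficient testes. The groups met almost exactly, wild type replicate 3 lying 0.0022 above VRK1-deficient replicate 2. The log2 change was -0.40 (SE 0.13, limma adjusted p = 0.0888), and the slides gave -0.40 and -0.41. Without wild type replicate 1 it was -0.43 (limma adjusted p = 0.0456). The other Trp53bp1 probe, A_52_P364757, gave -1.90, -1.52, -2.79 and -1.61 in wild type and -2.08, -2.03, -2.25 and -2.13 in VRK1-deficient testes. Wild type replicate 3 was by far the lowest of these, and the log2 change of -0.17 (SE 0.25, limma adjusted p = 0.688) was smaller than its SE.

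Nbn encodes NBS1, the subunit that brings the MRN complex and ATM to a break. Its brightest probe, A_51_P309328, maps over 3328 bases of chromosome 4 (chr4:15916258-15919585, plus strand), so that it crosses an intron, and it gave 2.13, 2.39, 2.77 and 2.53 in wild type and 2.27, 2.46, 2.45 and 2.28 in VRK1-deficient testes. The VRK1-deficient arrays fell inside the wild type range, of which replicate 1 was the lowest. The log2 change was -0.09 (SE 0.15, limma adjusted p = 0.707), 0.11 on slide 1 and -0.29 on slide 2. The probe A_52_P298548, upstream of it, had a change of 0.01 (limma adjusted p = 0.985). The probe A_52_P860172 is on the minus strand, opposite to the other Nbn probes, and was not well above background on any array.

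Over the 15 tested probes, 0 passed the adjusted threshold, against 3.66% of all probes tested. An unadjusted p under 0.05 was reached by 6 of the 15, against 28.8% of all probes, and 3 of 15 did not overlap between the genotypes, against 16.7%. By the methods' t-test, 5 of the 15 probes passed its threshold for p, against 7068 of the 26962 probes tested. Only the Atf2 zipper probe also had a fold change of at least 2, against 775 of all probes tested. Probes of one gene share their samples and are not independent.

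**Figure D3:**
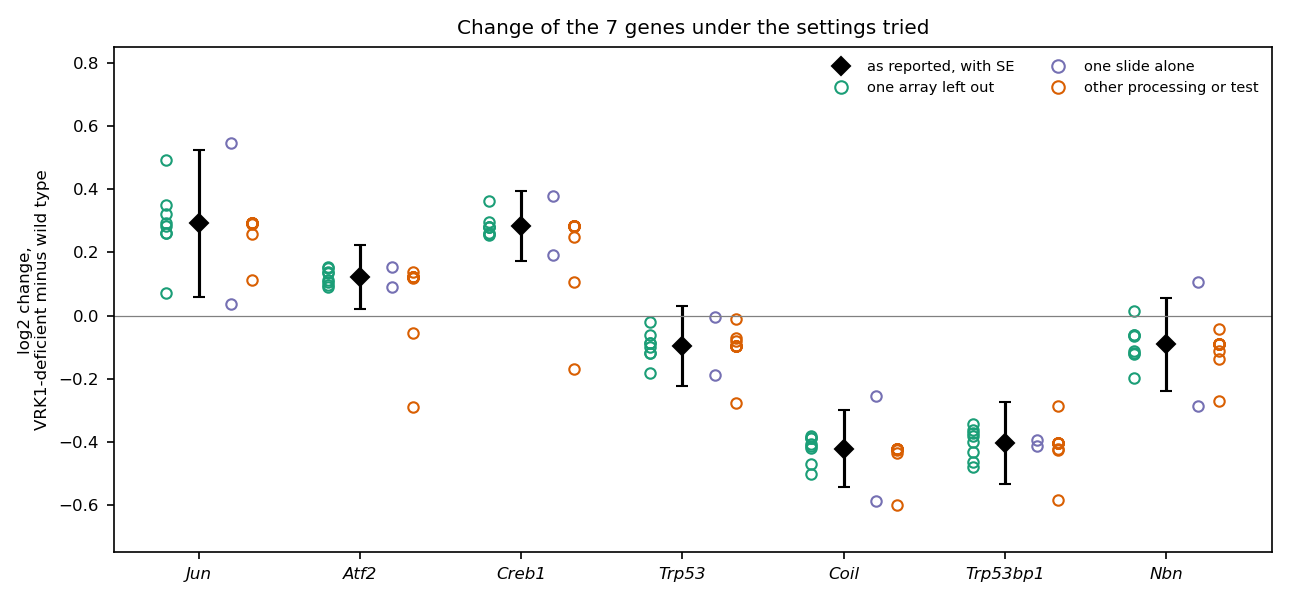
Log2 change of each gene (brightest probe) as reported, with its SE (black diamonds), and under other settings (circles): one array left out, one slide alone, and other processing or tests. Coil, Trp53bp1 and Trp53 stayed below 0 under all settings shown, Jun stayed above 0, and Atf2, Creb1 and Nbn crossed 0 under at least 1 setting.

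Genes that act with the members were read in the same comparison, in 7 lists of 88 genes in all, of which 85 were tested. Only 2 passed the adjusted threshold, and both were lower, against 2.21% of all genes called lower and 1.88% called higher. The split of calls depended on the scaling and on the test. Of the 986 probes called as reported, 535 were lower, and without scaling between arrays 852 of 916 were. By the methods' t-test on the scaled values, after Benjamini-Hochberg adjustment, 48 of 162 were lower. An unadjusted p under 0.05 was reached by 22 of the 85 genes, against 29.6% of all genes. Cdkn2a, which encodes the cell cycle inhibitor p16 and the p53 activator ARF, was at -2.32, -1.10, -1.17 and -0.96 in wild type and at -3.02, -2.86, -2.59 and -2.77 in VRK1-deficient testes, a log2 change of -1.42 (SE 0.28, limma adjusted p = 0.0454). Wild type replicate 1 was again nearest to the VRK1-deficient arrays, without overlapping them. Gemin5, the subunit of the SMN complex that recognises small nuclear RNAs, was at 2.53, 2.91, 2.90 and 2.79 in wild type and at 2.05, 2.27, 2.25 and 2.15 in VRK1-deficient testes, a log2 change of -0.60 (SE 0.12, limma adjusted p = 0.0469). Without wild type replicate 1, 20 of the 85 genes passed, against 28.9% of all genes in that setting, and when any other array was left out, 0 passed.

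Of 16 genes of the Cajal body and the SMN complex, the partners of coilin, 13 were lower and 3 higher (median log2 change -0.17). Only Gemin5 passed the adjusted threshold, and Wrap53, which brings telomerase RNA to Cajal bodies, followed with -0.50 (limma adjusted p = 0.128). Nolc1, a chaperone of nucleolar ribonucleoproteins that binds coilin, was at -0.34 (limma adjusted p = 0.140). Of 12 genes of the double-strand break response tested, the partners of TP53BP1 and NBS1, 10 were lower and 2 higher (median -0.20), and 0 passed with limma, with 1 at an unadjusted p under 0.05. The smallest p-values were those of Uimc1, the RAP80 subunit that binds ubiquitin at breaks (-0.49, limma adjusted p = 0.0968), Mad2l2, which acts below TP53BP1 in the shieldin complex (-0.31, limma adjusted p = 0.184), and Rbbp8, which encodes the resection factor CtIP (-0.46, limma adjusted p = 0.198). Without wild type replicate 1, 3 of the 16 Cajal body and SMN complex genes and 5 of the 12 break response genes passed, against 28.9% of all genes. All germ cell markers tested were lower on the same arrays, as given above, and their part in the values of Coil, Trp53bp1 and these lists was not tested.

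The lists around the transcription factors were divided. Of 12 AP-1 partners of Jun, 6 were lower and 6 higher (median 0.01), and 0 passed. Fosl1 (-0.39, limma adjusted p = 0.142), Junb (0.81, limma adjusted p = 0.161) and Jdp2 (0.33, limma adjusted p = 0.191) had the smallest p-values, and 2 genes had an unadjusted p under 0.05. Of 12 members of the ATF and CREB family and their coactivators, 5 were lower and 7 higher (median 0.04), and neither an adjusted nor an unadjusted p under 0.05 was reached. Atf5 (0.24, limma adjusted p = 0.252) and the acetyltransferases Ep300 (-0.26, limma adjusted p = 0.257) and Crebbp (-0.28, limma adjusted p = 0.281) came nearest. Ccnd1, the cyclin D1 gene, whose promoter is known to hold a CRE, had wide errors, with 0.46 ± 0.53 in wild type and -0.03 ± 0.41 in VRK1-deficient testes (SD, n = 4). Its log2 change was -0.49 (limma adjusted p = 0.286), 0.10 on slide 1 and -1.08 on slide 2.

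Immediate early genes, of which many are targets of CREB and AP-1, were more often higher. Of 12, 9 were higher and 3 lower, with a median log2 change of 0.47, beside 0.04 over all genes. None passed the adjusted threshold with limma, and 7 had an unadjusted p under 0.05, against 29.6% of all genes. Ier3, an early response gene of cell survival, was at -2.12, -2.50, -2.78 and -2.74 in wild type and at -1.83, -1.90, -2.04 and -1.74 in VRK1-deficient testes (log2 change 0.66, limma adjusted p = 0.055). Ccn1, also called Cyr61, a secreted matrix protein, was higher by 0.78 (limma adjusted p = 0.0726), and Klf4, a transcription factor, was lower (-0.49, limma adjusted p = 0.0779). On the same arrays 9 of 10 Sertoli cell markers were higher, with means per array of 2.66 to 3.53 in wild type and 3.31 to 3.63 in VRK1-deficient testes. Of 6 markers each, 6 macrophage (median 0.09), 6 endothelial (0.31) and 4 Leydig cell markers (0.28) were higher. Of 6 peritubular markers, 5 were lower (median -0.07). An unadjusted limma p under 0.05 was reached by 0, 1, 2 and 1 of these, in that order, and only the peritubular marker Cnn1 passed the adjusted threshold. The part of these cells in the values was not tested. Without wild type replicate 1 the median of the list was 0.55 and 4 of the 12 genes passed, against 28.9% of all genes.

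Of 13 kinases tested that act on the same substrates, 7 were lower and 6 higher (median -0.01), and 0 passed, with 3 at an unadjusted p under 0.05. Mapk10, the gene of the JNK3 kinase of c-Jun and ATF2, was at -0.70 (limma adjusted p = 0.0598), Prkdc, which encodes the DNA-dependent protein kinase, at -0.47 (limma adjusted p = 0.0679), and Prkacb, a catalytic subunit of the cAMP-dependent kinase, at 0.27 (limma adjusted p = 0.118). Of 10 regulators and relatives of p53, 7 were lower and 3 higher (median -0.14), and after Cdkn2a the smallest p-values were those of Trp63 (0.53, limma adjusted p = 0.0702) and the kinase Hipk2 (0.40, limma adjusted p = 0.128). The RNA of the related kinases Vrk2 and Vrk3 had log2 changes of 0.23 and -0.01 (limma adjusted p = 0.230 and 0.945).

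**Figure D4:**
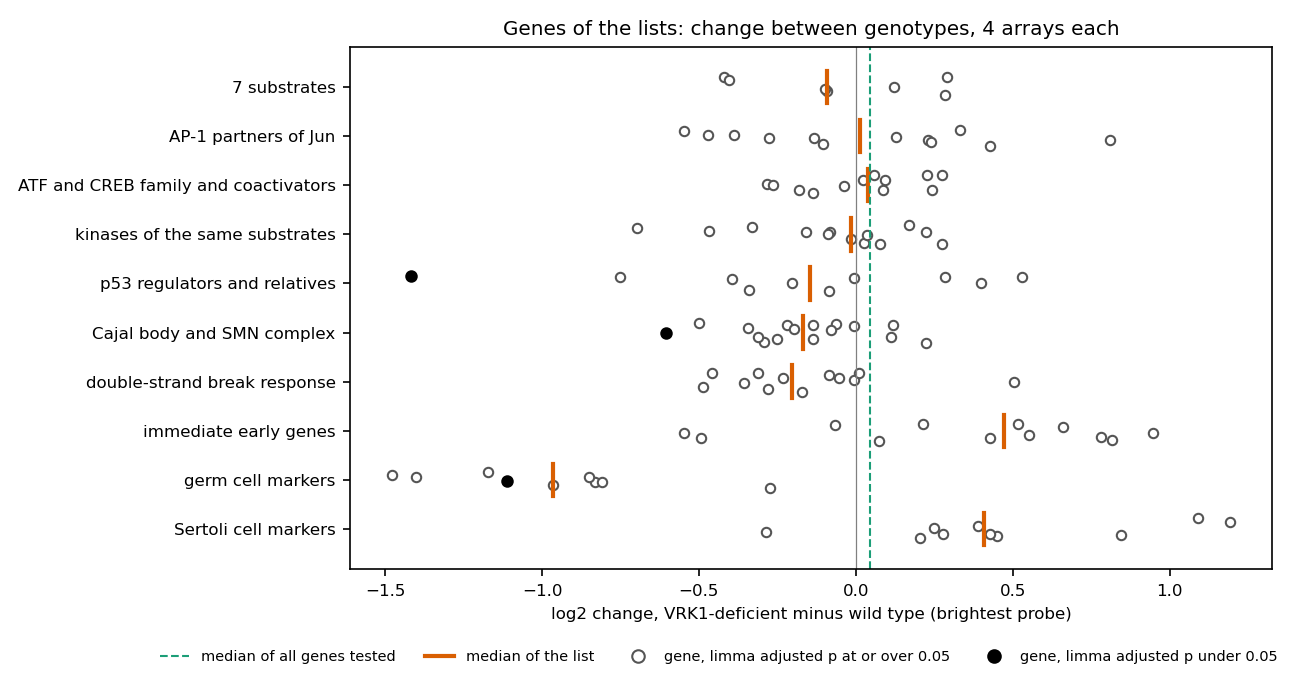
Log2 change between genotypes (VRK1-deficient minus wild type, brightest probe) of the genes in each list, with 4 arrays per genotype. Filled points passed the limma adjusted threshold, orange bars are list medians and the dashed green line is the median of all genes tested (0.04). The 7 substrates lie on both sides of 0, the immediate early genes mostly above it and the germ cell markers below it.

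The motifs that the zipper factors bind were searched on both strands of RefSeq promoters of build GRCm38.p6, which reach from 250 bases before to 50 bases after a start. A promoter was found for 6 of the 7 genes, all but Nbn. The CRE motif TGACGTCA was in 1.79% of 32851 promoters and the AP-1 motif TGACTCA in 5.20%, and in neither case in that of a member. The motif TGACATCA, which c-Jun and ATF2 are known to bind in the Jun promoter, was in 3.62% of promoters and, of the members, only in that of Jun, starting 45 bases before the start. It is in capitals in the stretch of the Jun promoter printed here.
Jun promoter (GRCm38.p6, chr4:95052234-95052293, minus strand): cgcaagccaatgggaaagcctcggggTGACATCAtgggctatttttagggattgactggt
Of 393 tested genes with a CRE in the promoter, 11 passed the adjusted threshold, which is 2.80% beside the 4.09% of all genes. All 11 were lower, beside 2.21% of all genes called lower, and 0 of 393 were called higher, beside 1.88%. The median log2 change of the 393 genes was -0.02. Of 537 tested genes with an AP-1 motif, 24 passed (4.47%), 10 lower and 14 higher, with a median of 0.07. Of 279 tested genes with TGACATCA, 11 passed (3.94%), 7 lower and 4 higher, with a median of 0.04. When wild type replicate 1 was left out, 100 of the CRE genes, 158 of the AP-1 genes and 76 of the TGACATCA genes passed, against 28.9% of all genes. A match to the letters is not a bound site.

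The genes whose levels over the 8 arrays were most like those of each member are given as a description, from 17946 genes compared with each. Coil was followed most closely by Ddx51 and Ythdf1 (Pearson r = 0.997 and 0.996), Nbn by Rbm8a and Mrpl21 (0.996 and 0.993), and Creb1 by the transcript AK085528 and Paip1 (0.995 and 0.992). Trp53bp1 was nearest to Mitf and Espl1 (0.986 and 0.984), Trp53 to Fam168a and Trim9 (0.981 and 0.952), Jun to Snx32 and Nxph4 (0.972 and 0.969), and Atf2 to Sult2b1 and Stk32a (0.969 and 0.962). With so many genes and 8 arrays, values of this size are the top of a long list.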

How the data were processed

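Total RNA of 8 testis samples was Cy3-labeled, and each sample was hybridized by the authors to its own 1-color Agilent mouse array. The deposited values are linear intensities, the background-subtracted processed signals of Agilent Feature Extraction 9.5.3.1 (per the submitters' processing notes), with any scaling between arrays not given in the sources used here. Outlier spots were dropped and spots of one probe averaged. Here log2 intensities were computed, and from each array its own 75th percentile was subtracted. A probe had to be well above background on 4 or more of the 8 arrays to enter the test, which 26962 of 41174 did (24378 on all 8). The number of arrays limits the precision. Symbols came from the RefSeq gene table for 22951 probes by accession, 6659 by symbol and 3109 by synonym, and from the array files for 8455.

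The genotype effect was fitted with limma 3.58.1 in R 4.3.3 (lmFit, eBayes). The Benjamini-Hochberg adjustment ran over every probe tested, with a threshold of 0.05. The brightest tested probe stood for the gene. On simulated data with 200 probes changed by 1 to 2 on the log2 scale among 26955, 83% were recovered and 11 unchanged probes called. Among the substrate genes at their brightest probes, the log2 change of the largest size was -0.42 (Coil), smaller than any simulated. Recovery of changes that small was not tested. Other steps used Python 3.11.15, numpy 2.4.6, pandas 2.3.3, scipy 1.17.1 and matplotlib 3.10.9.

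The members, the lists and the alternatives (scaling, normexp with an offset of 50, filters, slide, replicate block, variance model, mean of all probes, the methods' t-test, arrays left out) were chosen with earlier results of these data known. Named were the 7 genes, Vrk1, Ccnd1, from each list the called genes and the 3 smallest p-values, and the 2 genes most like each member. Vrk2 and Vrk3 were added after their values were seen. Deviations of same-numbered wild type and VRK1-deficient samples correlated at 0.468, 0.073, 0.188 and -0.138, so the numbers were not taken to pair the samples. The supplementary tables, qRT-PCR and histology were not used here.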

Additional observations from a re-analysis of the deposited data

Results flagged for a closer look

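Among the 15 tested probes, 30 groups of 4 arrays were checked for an array far from the rest, and 5 groups had one. Chance alone marks about 1 in 20 independent groups. The probes share the same arrays, so the groups are not independent and the count cannot be judged against that share. Wild type replicate 1 was far from the other wild type arrays at 4 probes, and at each of them it lay toward the VRK1-deficient arrays. It was at -3.71 at the upstream coding probe of Atf2, at -2.29 at the Atf2 zipper probe, at 0.22 at the brightest Creb1 probe and at 2.37 at the Coil probe. The fifth was VRK1-deficient replicate 2 at the brightest Creb1 probe, at 0.23, where the other 3 arrays of the group lay at 0.28.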

How the results depend on the processing

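Of the 7 genes at their brightest probes, 0 passed the adjusted limma threshold under the alternatives tried, with the following exceptions. With an intensity trend and robust variances 1 passed (Coil, -0.42, adjusted p = 0.0472), and without wild type replicate 1, 3 passed. The Atf2 zipper probe passed without scaling (limma adjusted p = 0.0346), with normexp (0.0310), with a replicate block (0.0314) and with the trend (0.0383). It also passed with the filter on all 8 arrays (0.0419) and on slide 2 alone (0.0422). It did not pass with quantile normalization (0.0572), with slide as a block (0.0508), without the filter (0.0956) or on slide 1 alone (0.501). Over all probes, 986 passed, and 17 did without the filter on dim probes, 641 with slide as a block, 3 on slide 1 alone and 1916 with the trend. Without scaling 916 passed, with normexp 1393, with the filter on all 8 arrays 1389 and on slide 2 alone 1059. The methods' t-test gave 162 after Benjamini-Hochberg adjustment and 7068 at its own threshold for p. With a replicate block 2280 probes and 7 partner genes passed, and 0 of the 7 genes. Partner genes, of which 2 passed, gave 1 without scaling or with slide as a block and 4 with the trend. They gave 0 without the filter, on slide 1 alone or by the adjusted t-test. Atf2 turned to -0.057 without scaling and to -0.29 with the mean of all probes, Creb1 to -0.17 with the mean of all probes, and Nbn to 0.11 on slide 1 alone. Without scaling, the median of all probes moved from 0.04 to -0.14, the mean change of the 7 genes from -0.04 to -0.22, the second Trp53 probe to -0.10 and the second Nbn probe to -0.17. With the mean of all probes the mean change was -0.13. The upstream Atf2 probe turned to 0.011 with normexp, and on slide 2 alone the second Trp53bp1 probe turned to 0.0078 and the second Nbn probe to -0.069. The second Trp53 probe turned to -0.14 on slide 1 alone. The causes were not tested.

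When single arrays were left out, the count over all probes ran from 3 to 7659, that of partner genes from 0 to 20 and that of the 7 genes from 0 to 3, with the highest counts in each case without wild type replicate 1. Without any other array, between 3 and 68 probes passed. The log2 change ran from 0.07 (without wild type replicate 4) to 0.49 (without wild type replicate 1) for Jun, from -0.18 (without wild type replicate 4) to -0.02 (without wild type replicate 1) for Trp53, from 0.09 to 0.15 for Atf2, from 0.25 to 0.36 for Creb1, from -0.50 to -0.38 for Coil, from -0.48 to -0.34 for Trp53bp1 and from -0.20 to 0.013 for Nbn, which turned sign without wild type replicate 3. The second Nbn probe ran from -0.064 to 0.11.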
